A study of Mus musculus with 20 samples.

Results

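Retinas of Atf6-/- mice were compared with retinas of Atf6+/+ mice at postnatal day 17 of oxygen-induced retinopathy (OIR), genome-wide and with the library as the unit. The comparison used 10 of the 20 RNA-seq libraries of the series, 5 of each genotype, chosen by the genotype and age in the sample labels. The mice of both groups were on the C57BL/6J strain, were kept in 75% oxygen from P7 to P12 and in room air for the next 5 days, and gave retinas at P17. Atf6-/- mice carry a premature stop codon in every cell of the body, so no retinal cell type was targeted on its own. Each library held RNA of whole retina from which cornea and lens had been removed, pups of either sex entered the model, and the labels gave no library's sex, litter or batch. The labels did not say whether the 5 libraries of a group came from 5 animals, so the p-values below measure the spread between these libraries only. The question was which cell types, pathways and abundant genes differed between the genotypes apart from the unfolded protein response, angiogenesis and light-response genes.

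ATF6 is a transcription factor that rests in the membrane of the endoplasmic reticulum. When proteins misfold there, ATF6 moves to the Golgi, is cut, and its freed cytosolic part enters the nucleus and switches on genes for chaperones and for the removal of faulty proteins. In OIR, high oxygen stops the growth of the young retinal vessels, and the return to room air leaves the inner retina short of oxygen, so that vessels regrow and some form tufts. Rods are the most numerous cells of the mouse retina, so transcripts of rod genes dominate whole-retina RNA. In such bulk RNA, fewer cells of a type and less RNA per cell cannot be told apart.

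The deposited table gave FPKM, fragments counted on a gene relative to transcript length and library total, for 19368 genes. Values below are FPKM divided by a median-of-ratios factor per library, which ranged from 0.946 to 1.04, and are called rescaled FPKM. Of these genes, 15704 had a mean above 0.1 FPKM and were tested with limma on log2(rescaled FPKM + 0.1), so that a log2 fold change understates the difference of low genes. A log2 fold change is given as Atf6-/- minus Atf6+/+.

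Before any gene was considered, 2 libraries stood apart from their groups. The first principal component, which held 29.7% of the variance, put Atf6+/+ replicates 1, 2, 3 and 5 between -26.87 and -7.44 and Atf6-/- replicates 1 to 4 between 17.08 and 26.14. Atf6+/+ replicate 4 lay at 10.87 and Atf6-/- replicate 5 at -12.99, each on the side of the other genotype. The same split appeared in base composition. The log2 deviations of the transcripts correlated with their GC content at a Spearman coefficient of 0.33 to 0.39 in the 4 Atf6+/+ libraries and -0.55 to -0.16 in the 4 Atf6-/- libraries, against -0.31 in Atf6+/+ replicate 4 and 0.41 in Atf6-/- replicate 5. In 5437 genes, or 34.6% of those tested, Atf6+/+ replicate 4 was the Atf6+/+ library nearest to the Atf6-/- libraries and Atf6-/- replicate 5 the Atf6-/- library nearest to the Atf6+/+ ones. Both libraries matched their labels in each of the 5 genes that passed the test. Those genes were chosen with both labels in the fit, so this match is no independent check. The same 5 were also called without Atf6+/+ replicate 4 and without Atf6-/- replicate 5. The main counts below use all 10 libraries, and counts without either of these 2 are given where they moved most.

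**Figure D1:**
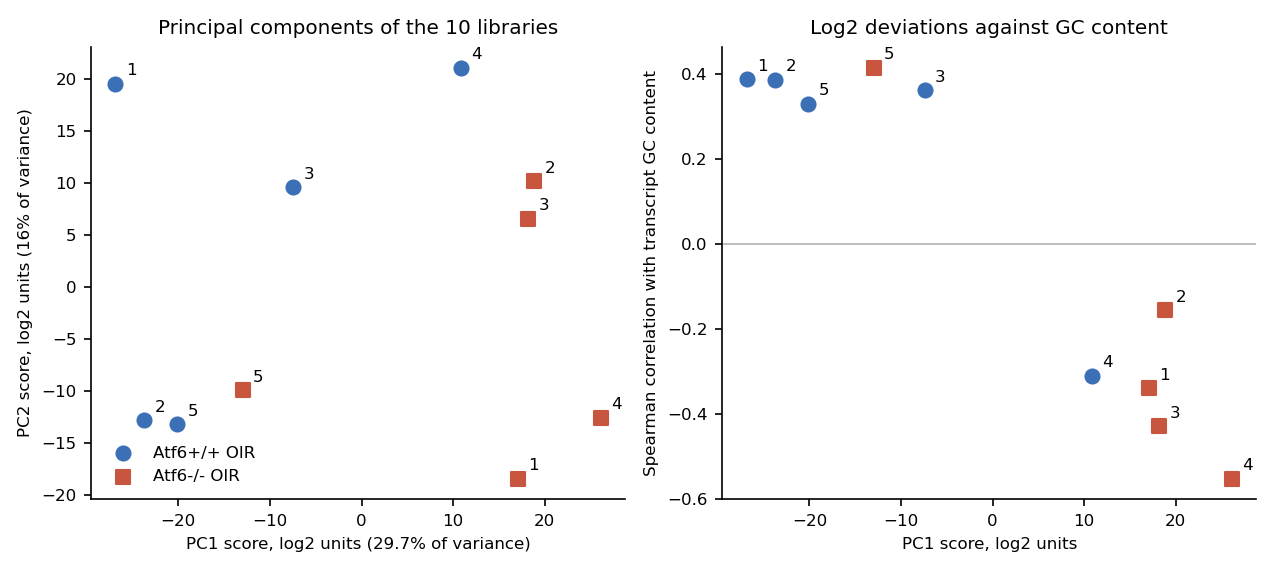
Left, scores of the 10 libraries on the first and second principal components of log2 rescaled FPKM. Right, the same first component against the Spearman correlation between a library's log2 deviations and transcript GC content. Circles are Atf6+/+ and squares Atf6-/- libraries, each numbered by replicate. Atf6+/+ replicate 4 (PC1 10.87) and Atf6-/- replicate 5 (PC1 -12.99) lie on the side of the other genotype on the first component and in the GC correlation, Atf6+/+ replicate 4 between the groups on the first component.

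Across the genome few genes passed the test. By limma with Benjamini-Hochberg adjustment, 5 genes passed an adjusted p of 0.05, or 0.0318% of those tested, and 4 of the 5 were higher in Atf6-/- retinas. A looser threshold, a limma p of 0.05 or less before adjustment and called the unadjusted threshold below, was met by 1087 genes (6.92%) that were higher and 915 (5.83%) that were lower. These 2 shares are the background for the list counts of this main fit. Counts from another fit have the totals of that fit as background, and those without a doubtful library follow in the next paragraph. Over the same 15704 genes, 582 were higher and 1324 lower with FPKM as deposited, and 864 and 753 after the GC correction. With the lens and pigment epithelium levels described below as covariates, 867 were higher and 731 lower. The 2 groups did not overlap in 171 genes (1.09%) that were higher and 109 (0.694%) that were lower. The median log2 fold change over all genes was 0.0028.

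Among the genes past the unadjusted threshold, 54.3% were higher in Atf6-/- retinas, against 30.5% with FPKM as deposited and 31.0% with libraries rescaled to the same sum. The split between higher and lower therefore depended on the scaling. Without Atf6+/+ replicate 4, 1753 genes were higher and 2009 lower at this threshold, and without Atf6-/- replicate 5, 1858 were higher and 2154 lower. The number with an adjusted p under 0.05 was then 6 and 9. Leaving out Atf6-/- replicate 4 instead gave 612 higher and 481 lower genes, and leaving out Atf6+/+ replicate 1 gave 729 and 572.

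The transcript of the targeted gene did not separate the genotypes. Atf6 stood at 14.96, 16.05, 14.4, 14.1 and 14.8 rescaled FPKM in Atf6+/+ libraries 1 to 5 and at 15.8, 13.3, 16.7, 16.2 and 14.3 in Atf6-/- replicates 1 to 5. The groups overlapped, with a log2 fold change of 0.04 ± 0.07 (SE). The level of a transcript with a premature stop codon does not report the protein. Atf6b, the paralog of ATF6, stood at 30.4 to 42.7 rescaled FPKM in Atf6+/+ and 29.1 to 47.0 in Atf6-/- libraries, which also overlapped.

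The 5 genes past the adjusted threshold were Gm29733, a predicted gene near Atf6 on chromosome 1, the neighbours Duxbl1, Plac9a and Tmem254a on chromosome 14, and Shmt2 on chromosome 10. Duxbl1 encodes a homeodomain protein of the Dux family, Plac9a a small secreted protein and Tmem254a a membrane protein, while Shmt2 encodes the mitochondrial serine hydroxymethyltransferase, which moves a carbon from serine to tetrahydrofolate. Near-identical copies of the genes on chromosome 14 are annotated, so their FPKM is uncertain. In each gene every Atf6-/- library lay on the same side of every Atf6+/+ library, which gives the smallest p that the exact two-sided permutation test of 5 against 5 allows, 0.00794.

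The wild-type mice of the P30 experiment of the same series offer a second set of levels for these genes. These retinas had seen no oxygen treatment and had been given saline or the ATF6 inhibitor Ceapin-A7. Their FPKM came from a separate table and another age, so the levels are set side by side as deposited and were not tested. Gm29733 was listed at 0 in all 5 Ceapin-A7 libraries and ranged from 0 to 0.24 FPKM with saline, against 0 to 0.21 in Atf6+/+ OIR and 3.12 to 6.89 in Atf6-/- OIR libraries. Only the Atf6-/- libraries of the series thus held more than 1 FPKM of it. Duxbl1 ranged from 2.04 to 3.42 FPKM over the 10 P30 libraries, below both Atf6+/+ OIR (9.41 to 12.3) and Atf6-/- OIR (30.4 to 50.8).

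In the other 3 genes the Atf6+/+ OIR libraries lay outside the range of every other group. In Plac9a and Tmem254a the Atf6-/- OIR libraries also lay above every P30 saline library. Shmt2 stood at 60.6 to 76.1 FPKM in Atf6+/+ OIR libraries, at 25.5 to 39.6 in Atf6-/- OIR libraries, at 21.4 to 34.1 in P30 saline libraries and at 21.5 to 25.2 in P30 Ceapin-A7 libraries. The Atf6-/- level thus overlapped that of wild-type P30 saline retinas. Plac9a stood at 8.65 to 12.9 FPKM in Atf6+/+ OIR libraries and at 25.3 to 31.7 in Atf6-/- OIR libraries. It stood at 16.04 to 25.04 in P30 saline and at 25.8 to 27.9 in P30 Ceapin-A7 libraries. Tmem254a stood at 7.58 to 11.2, 19.6 to 26.3, 11.9 to 18.97 and 13.3 to 19.96 FPKM in the same order.

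**Figure D2:**
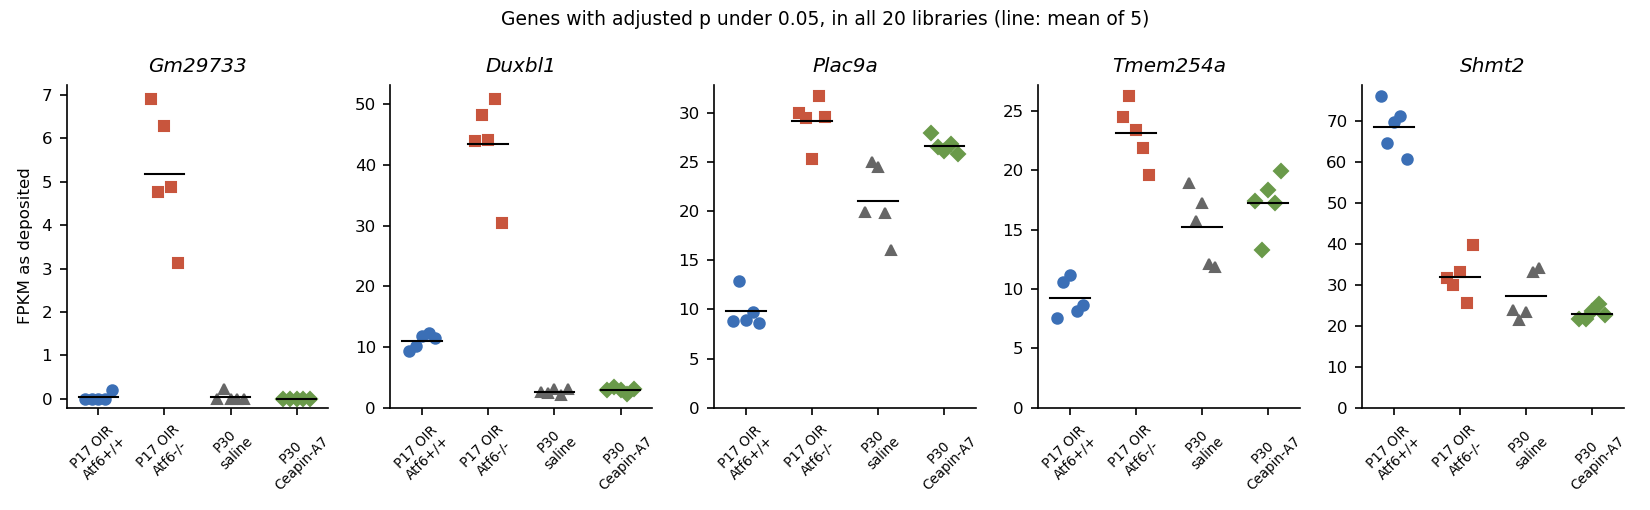
FPKM as deposited of the 5 genes with an adjusted p under 0.05 (y axes, each from about 0) in all 20 libraries (points) of the 4 groups of the series (x axis), with the mean of 5 libraries as a line. In Shmt2, Plac9a and Tmem254a the Atf6+/+ OIR libraries lie outside the range of every other group, and in Gm29733 the Atf6-/- OIR libraries do (3.12 to 6.89 FPKM against at most 0.24). In Plac9a and Tmem254a the Atf6-/- OIR libraries also lie above every P30 saline library.

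Genes around these loci had medians near 0. Within 5 Mb, positions being those of the RefSeq annotation of GRCm38.p6, 97 tested genes lay around Atf6, of which 7 were higher and 6 lower at the unadjusted threshold, with a median log2 fold change of -0.05. Around Shmt2, 7 of 92 were higher and 8 lower, with a median of -0.06, and around Duxbl1, 6 of 46 were higher and 3 lower, with a median of 0.06. Over all genes tested, the groups did not overlap in 1.09% on the higher and 0.694% on the lower side. In these windows the gene at the centre was not counted, but the other called genes were. Genes without overlap were 2 higher and 0 lower of 97 around Atf6. Around Shmt2 there were 1 higher and 3 lower of 92, and around Duxbl1 3 higher and 1 lower of 46. Those around Shmt2 were, on the lower side, Arhgef25, which encodes a guanine nucleotide exchange factor, Slc26a10 (log2 fold change -0.54) and the replication fork gene Timeless (-0.40). On the higher side it was the phosphatase gene Ppm1h (0.37), and all were singled out by their position. Arhgef25 stood at 28.0 to 31.3 rescaled FPKM in Atf6+/+ and 23.8 to 25.0 in Atf6-/- libraries, with a log2 fold change of -0.24 ± 0.05 (SE, limma adjusted p = 0.237).

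The stretch before the start of Shmt2 is shown because Shmt2 was the one called gene that was lower without ATF6, the factor whose binding elements are known. The 250 bases upstream of its start, on the minus strand of chr10:127522445-127522694 in GRCm38.p6 (RefSeq), read as follows, all in lower case because no motif searched was found.
Shmt2: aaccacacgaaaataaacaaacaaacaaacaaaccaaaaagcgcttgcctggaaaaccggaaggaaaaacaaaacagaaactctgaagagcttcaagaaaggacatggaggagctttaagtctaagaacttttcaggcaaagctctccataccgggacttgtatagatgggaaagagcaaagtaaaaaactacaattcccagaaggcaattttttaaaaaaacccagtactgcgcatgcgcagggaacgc
The search covered both strands for the ER stress response element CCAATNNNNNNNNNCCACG, for its first part CCAAT alone and for its last part CCACG alone. It also covered the unfolded protein response element TGACGTGG and the shorter TGACG within it. The parts overlap the whole elements as written. Over the same 250 bases of 12376 tested genes, the whole elements were present in 0.162% and 0.654%, the CCAAT part in 36.1%, the CCACG part in 39.7% and the TGACG part in 25%. Plac9a, Tmem254a and Gm29733 had none of these either. A match describes letters only, and its absence says nothing about binding of the factor elsewhere.

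To describe cell types, 18 lists of marker genes were summarised by their median log2 fold change, by the number of genes past the unadjusted threshold and by a library score, the median over the list of log2 deviations from each gene's mean. No list was tested, and none of the listed genes in this and the following paragraphs passed the adjusted threshold unless stated. The library scores of 2 lists, horizontal cell and lens, did not overlap between genotypes. Some lens genes passed the filter only through Atf6+/+ libraries, as described below. In 12 of the 39 cell type and pathway lists the scores of Atf6+/+ replicate 4 and Atf6-/- replicate 5 were the ones nearest to the other genotype.

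Horizontal cell markers were higher in Atf6-/- retinas. Horizontal cells are the inhibitory interneurons that contact photoreceptor terminals. Of 12 genes, 10 had a log2 fold change above 0, 5 were higher at the unadjusted threshold and none lower, and the median was 0.15. Without Atf6+/+ replicate 4 or without Atf6-/- replicate 5, 4 were higher in each case, and with the lens and pigment epithelium levels as covariates the median was 0.32. The list's library scores ran from -0.258 to -0.028 in Atf6+/+ and from -0.003 to 0.157 in Atf6-/- libraries, so that the groups were separated by a gap far smaller than their ranges.

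Septin4, which encodes a cytoskeletal GTPase, stood at 120, 124, 126, 126 and 129 rescaled FPKM in Atf6+/+ libraries 1 to 5 and at 150, 139, 139, 144 and 144 in Atf6-/- replicates 1 to 5. Every Atf6-/- library exceeded every Atf6+/+ library, with a log2 fold change of 0.20 ± 0.05 (SE, limma adjusted p = 0.357, exact permutation p = 0.00794). Sv2b, a synaptic vesicle glycoprotein gene, was also a member of the synaptic list and so not a marker of horizontal cells alone. It stood at 63.9, 66.6, 68.1, 69.3 and 69.2 rescaled FPKM against 84.8, 73.9, 75.6, 83.7 and 71.7. It was likewise higher in 5 of 5 libraries, with a log2 fold change of 0.21 ± 0.06. Gja10, a gap junction gene of these cells, differed by 0.48 ± 0.11 on the log2 scale without overlap. Lhx1, the transcription factor that defines horizontal cells, did not follow: it stood at 1.68 to 3.21 rescaled FPKM in Atf6+/+ and 1.59 to 2.88 in Atf6-/- libraries, with a log2 fold change of -0.13.

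Photoreceptor genes had medians slightly above 0. Of 22 rod genes, 19 had a log2 fold change above 0, 6 were higher at the unadjusted threshold and none lower, with a median of 0.11. The count was 7 without Atf6+/+ replicate 4 and 5 without Atf6-/- replicate 5. It depended on the scaling: 3 were higher with FPKM as deposited and none with quantile normalization (median 0.06), and 2 were with all 20 libraries fitted. Of 17 cone genes, 15 were above 0, with 3 higher, none lower and a median of 0.11, and the counts of higher genes were 4 and 3 in the same 2 cases.

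Pdc, the gene of phosducin, which binds the beta-gamma subunits of transducin, stood at 1145, 1180, 1426, 1451 and 1419 rescaled FPKM in Atf6+/+ and at 1721, 1596, 1613, 1652 and 1489 in Atf6-/- replicates 1 to 5. The groups did not overlap, and the log2 fold change was 0.29 ± 0.09 (SE, limma adjusted p = 0.357, exact permutation p = 0.00794). Crx, a transcription factor that drives photoreceptor genes, stood at 585 to 623 rescaled FPKM in Atf6+/+ and at 663 to 723 in Atf6-/- libraries, again without overlap.

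Among cone genes Thrb, the thyroid hormone receptor that specifies green-sensitive cones, was the one whose groups did not overlap, at 12.7 to 13.9 rescaled FPKM in Atf6+/+ and 14.3 to 16.2 in Atf6-/- libraries. Opn1mw, the green cone opsin gene, and Gnat2, the cone transducin gene, each differed by 0.27 ± 0.08 (SE) on the log2 scale, with overlap.

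Other retinal neurons and glia showed mixed or small differences. Of 22 ganglion cell genes, 5 were higher, among them Elavl2 (log2 fold change 0.39), Jam2 (0.29) and Slc17a6, the vesicular glutamate transporter gene (0.29), and 1 was lower. Their median was 0.04, the defining marker Rbpms differed by -0.12, and without Atf6-/- replicate 5 there were 6 higher and 5 lower. In 21 bipolar cell genes 1 was higher (Isl1, 0.18) and 1 lower (Rgs11, -0.19). In 21 amacrine cell genes none was higher and 1 lower (C1ql2, -0.41), and without Atf6+/+ replicate 4 this became 6 lower.

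Of 22 Müller glia genes, 3 were higher, the carbonic anhydrase genes Car14 (log2 fold change 0.39) and Car2 (0.21) and the lipid carrier gene Apoe (0.24), and none was lower. Their median was 0.06, and without Atf6+/+ replicate 4 it was 0.01, with 2 higher and 2 lower. Of 11 astrocyte genes, 2 were higher, among them the connexin gene Gja1 (0.49), with a median of -0.03.

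Mural cell genes were lower in Atf6-/- retinas. Pericytes and smooth muscle cells wrap capillaries and arterioles. Of 20 genes, 19 had a log2 fold change below 0, 6 were lower at the unadjusted threshold and none higher, and the median was -0.41. Leaving out Atf6-/- replicate 5 gave 15 lower genes, leaving out Atf6+/+ replicate 4 gave 10, and leaving out Atf6-/- replicate 1 gave 2, the lowest count. The library scores ran from -0.024 to 0.442 in Atf6+/+ and from -0.599 to -0.217 in Atf6-/- replicates 1 to 4, with Atf6-/- replicate 5 at 0.234.

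Myh11, the smooth muscle myosin gene, stood at 1.37, 1.45, 1.07, 1.04 and 0.943 rescaled FPKM in Atf6+/+ and 0.749, 0.852, 0.673, 0.596 and 0.645 in Atf6-/- replicates 1 to 5. It was the only gene of the list without overlap, with a log2 fold change of -0.66 ± 0.14 (SE, limma adjusted p = 0.302, exact permutation p = 0.00794). Rgs5, a pericyte gene, stood at 63.4 to 98.1 rescaled FPKM in Atf6+/+ and 62.7 to 69.0 in Atf6-/- libraries. Pdgfrb, the pericyte receptor gene and defining marker, stood at 9.54 to 10.6 rescaled FPKM in 4 Atf6+/+ libraries and 6.37 in replicate 4, and at 5.49 to 6.26 in 4 Atf6-/- libraries and 12.02 in replicate 5, so that the exchange seen in the principal component recurred in it.

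The endothelial list had 8 of 26 genes lower, 2 higher and a median of -0.27, against 11 lower without Atf6+/+ replicate 4 or without Atf6-/- replicate 5 and 2 lower without Atf6+/+ replicate 1. Genes of the extracellular matrix and basement membrane also stood lower. Of 42 such genes, 32 had a log2 fold change below 0, 15 were lower and 1 higher, and the median was -0.23. Without Atf6+/+ replicate 4 or without Atf6-/- replicate 5, 21 were lower, and without Atf6+/+ replicate 1, 5 were. The proteoglycan gene Bgn stood at 28.2, 28.9, 28.7, 18.2 and 21.7 rescaled FPKM in Atf6+/+ and 12.5, 15.6, 15.9, 13.6 and 23.7 in Atf6-/- replicates 1 to 5, with a log2 fold change of -0.64 ± 0.17 and overlap through Atf6-/- replicate 5. The collagen genes Col15a1 and Col5a2 differed by -0.73 and -0.45, and the fibrillar collagen gene Col3a1 of the fibroblast list by -0.64.

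The transcripts of these 3 lists were also richer in GC than the rest. Their median GC content was 53.6% for mural cell, 52.4% for endothelial and 53.3% for matrix genes, against 50% over all genes tested. After correction of each library for GC content, 7 mural cell, 6 endothelial and 13 matrix genes were lower, with medians of -0.37, -0.20 and -0.18. In the fit with the lens and pigment epithelium levels described below as covariates, the medians were -0.10, -0.04 and 0.01. The direction of the matrix list was lost there, but these levels differed between the genotypes and cannot be separated from genotype.

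Immune and blood cell genes met the unadjusted threshold in few members, more of them with the lens and pigment epithelium covariates. Of 25 microglia and macrophage genes, 3 were lower, Itgam (log2 fold change -0.30), the antigen presentation gene H2-Ab1 (-0.74) and Aif1 (-0.37), and none was higher, with a median of -0.10. With those covariates 11 were lower and the median was -0.39. Cx3cr1, the microglial fractalkine receptor and defining marker, stood at 4.24 to 5.31 rescaled FPKM in Atf6+/+ and 3.64 to 4.88 in Atf6-/- libraries. The neutrophil and lymphocyte list had 8 genes past the filter, of which 1 was higher and 1 lower (Lcn2, -0.55), and the T cell marker Cd3e was below it. None of 8 erythroid genes passed the unadjusted threshold with all 10 libraries, with a median of -0.40. Without Atf6+/+ replicate 5, 5 were lower with a median of -0.87, and with the lens and pigment epithelium covariates 6 were lower with a median of -2.14. Their scores ranged from -1.44 to 1.07 in Atf6+/+ and -1.12 to 0.25 in Atf6-/- libraries, so libraries of 1 group differed by more than the groups did.

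The lists of tissues next to the retina, pigment epithelium and lens, had the largest medians. Of 27 retinal pigment epithelium genes, 24 had a log2 fold change above 0, 16 were higher and none lower, with a median of 0.59. Leaving out any 1 library left 13 to 17 of them higher. The library scores overlapped: Atf6+/+ replicates 1 and 2 lay at -0.926 and -0.742, the other Atf6+/+ libraries and Atf6-/- replicates 1 and 5 between -0.163 and 0.085, and Atf6-/- replicates 2 to 4 between 0.381 and 0.888.

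Slc6a13, a GABA and taurine transporter gene, stood at 3.17, 5.42, 5.07, 6.24 and 4.11 rescaled FPKM in Atf6+/+ and 6.43, 11.4, 9.15, 6.91 and 7.06 in Atf6-/- replicates 1 to 5. The groups did not overlap, with a log2 fold change of 0.76 ± 0.19 (SE, limma adjusted p = 0.357). Ttr, the gene of the retinol and thyroid hormone carrier transthyretin, was singled out after its values were seen. It stood at 8.04, 14.5, 54.5, 58.4 and 68.0 rescaled FPKM in Atf6+/+ and 33.1, 214, 141, 179 and 65.2 in Atf6-/- replicates 1 to 5, with overlap, and its 5 Atf6+/+ libraries stood in the same order as in the library score. Rlbp1, which Müller glia also express, was the most abundant gene of the list and overlapped, at 180 to 221 against 187 to 238 rescaled FPKM.

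Lens genes differed through a few Atf6+/+ libraries. The summed level of the list's genes ran from 28.5 to 1092 rescaled FPKM in Atf6+/+ and from 21.6 to 29.0 in Atf6-/- libraries. The scores of Atf6+/+ replicates 5 and 2 were 4.73 and 2.76, those of the other 3 Atf6+/+ libraries -0.888 to 0.038 and those of the Atf6-/- libraries -1.40 to -1.02. Of 22 genes, 16 were lower in Atf6-/- retinas and none higher. The median was -2.51, or -2.0 without 4 genes listed at 0 in a whole group. The filter was a mean over both groups. Genes such as Cryaa, Cryba1 and Crygd, with Atf6-/- means of 0.084, 0.082 and 0.020, passed it only through the Atf6+/+ libraries. Such genes could only come out lower, so the count, both medians and the gap between the scores describe these libraries and are no test.

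Cryaa, the alpha-crystallin gene, stood at 2.75, 34.4, 0.177, 5.64 and 131.6 rescaled FPKM in Atf6+/+ libraries 1 to 5 and at most 0.233 in Atf6-/- libraries. Cryge and Crygc, gamma-crystallin genes, were listed at 0 in every Atf6-/- library and ranged from 0.11 to 100.7 and from 0.11 to 90.4 in Atf6+/+ libraries. Mip, the defining lens fiber channel, was at most 0.43 FPKM in any library. The part of lens and pigment epithelium RNA in the other differences was not tested. In a fit with both levels as covariates, 4 genes had a limma adjusted p under 0.05 and 3 of the 5 remained. Both levels themselves differed between the genotypes, so this fit cannot separate them from genotype. The same holds for every count and median quoted from it.

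The list of the anterior eye leaned higher, while those of fibroblasts and of myelin showed no common direction. Of 18 cornea, ciliary body and iris genes, 12 had a log2 fold change above 0 and 5 were higher, with a median of 0.14. With any 1 library left out that median ran from 0.003 to 0.18. Krt12, the defining marker of cornea, did not follow, with a log2 fold change of -0.21. It stood at 0.1768 to 0.4999 rescaled FPKM in Atf6+/+ and 0.1485 to 0.4147 in Atf6-/- libraries. Among the higher genes was Pax6, a master regulator of eye development and the most abundant gene of the list. It stood at 87.9 to 92.4 rescaled FPKM in Atf6+/+ and 94.2 to 105 in Atf6-/- libraries, without overlap. Ptgds, a prostaglandin synthase gene of the same list, differed by 0.70 with overlap, and 1 gene was lower. Of 13 fibroblast genes 2 were higher and 4 lower, and Col1a1, the defining marker, stood at 0.941 to 1.94 rescaled FPKM in Atf6+/+ libraries against 0.364 to 0.664 in Atf6-/- replicates 1 to 4 and 2.42 in replicate 5. Of 10 oligodendrocyte genes 2 were higher and 1 lower, and Mog was below the filter.

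**Figure D3:**
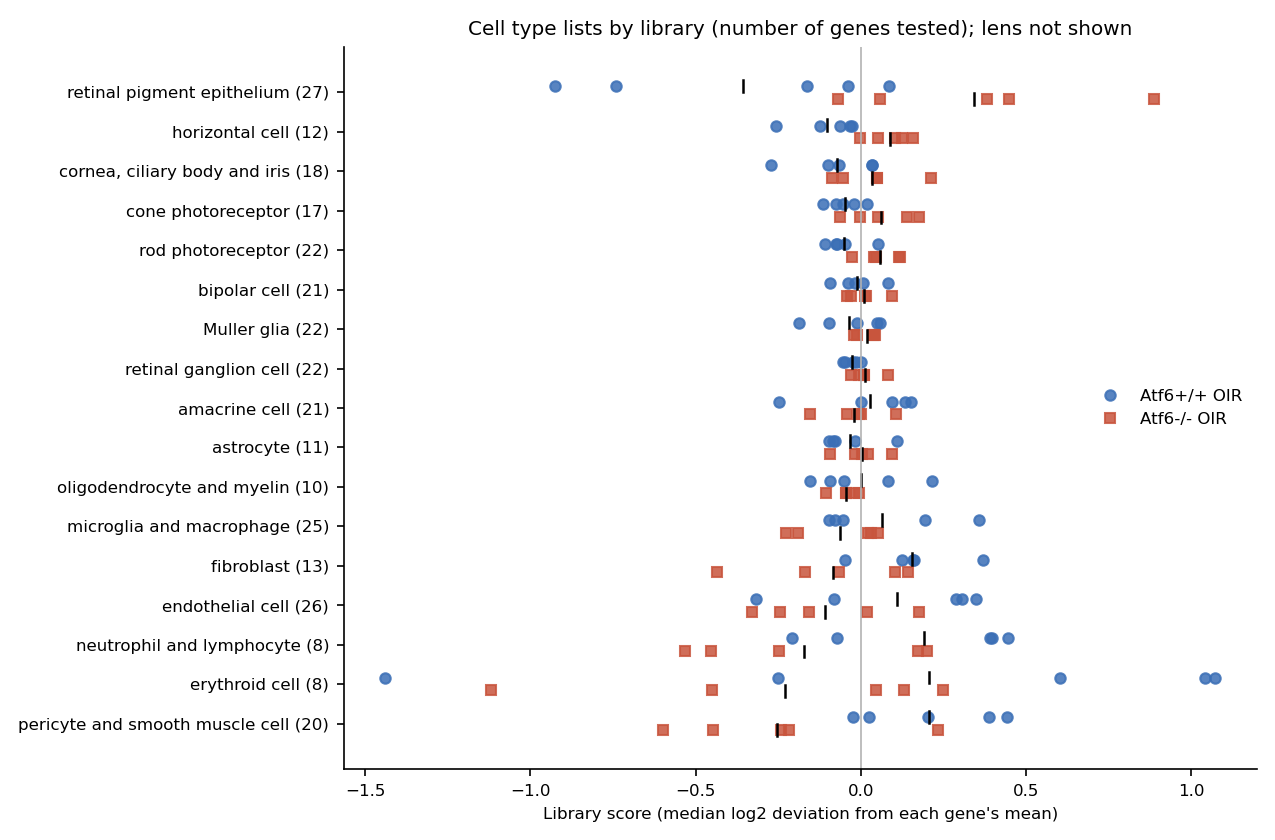
Library scores of 17 cell type lists (x axis, log2 units; the number of genes tested in brackets), with 1 circle per Atf6+/+ and 1 square per Atf6-/- library and the group mean as a black bar. The lens list, with scores up to 4.73, is not shown. Horizontal cell scores do not overlap, pigment epithelium scores lie mostly higher and mural cell scores mostly lower in Atf6-/- libraries, apart from Atf6-/- replicate 5 at 0.234.

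Among 21 pathway lists with tested genes, that of the respiratory chain stood slightly higher in Atf6-/- retinas, with 15.8% of its genes past the unadjusted threshold on the higher side against 6.92% of all genes. Of 76 nuclear genes for oxidative phosphorylation, 68 had a log2 fold change above 0, 12 were higher and none lower, and the median was 0.12. Without Atf6+/+ replicate 4 the count was 39, without Atf6-/- replicate 5 it was 32, and over single libraries left out it ran from 4 to 39. It was 5 with FPKM as deposited, 9 with libraries rescaled to the same sum, 6 with the replicate block and 15 after the GC correction. Abundant genes of any function also leaned higher: between 100 and 1000 FPKM, 71 of 618 genes were higher. Cox5a, a subunit gene of cytochrome c oxidase, stood at 90.8, 89.0, 102, 97.5 and 93.4 rescaled FPKM in Atf6+/+ and 108, 116, 105, 108 and 110 in Atf6-/- replicates 1 to 5. It did not overlap, with a log2 fold change of 0.21 ± 0.05 (SE, limma adjusted p = 0.357), whereas Cox7c (0.36) of the same complex and the ATP synthase gene Atp5o (0.21) overlapped.

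Of 79 cytosolic ribosomal protein genes, 77 were above 0 but 6 were higher at the unadjusted threshold, a share of 7.59% beside 6.92% over all genes, with a median of 0.11. The 2 doubtful libraries bear on this list: without Atf6+/+ replicate 4 the count was 32 and without Atf6-/- replicate 5 it was 11. Rps26 stood at 708 to 886 rescaled FPKM in Atf6+/+ and 840 to 1052 in Atf6-/- libraries. Of 78 mitochondrial ribosomal protein genes 4 were higher, among them Mrpl37 (log2 fold change 0.15, without overlap), and of 34 proteasome genes 1 was, shares of 5.13% and 2.94%, both below the 6.92% of all genes. None was lower in either list. The counts of higher genes in these 2 lists were 11 and 8 without Atf6+/+ replicate 4, and 10 and 8 without Atf6-/- replicate 5. Over all genes the counts of higher genes also rose in these 2 fits, from 1087 to 1753 and 1858. With the lens and pigment epithelium levels as covariates, the medians of the oxidative phosphorylation, cytosolic ribosomal, mitochondrial ribosomal and proteasome lists turned to -0.08, -0.10, -0.13 and -0.11.

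Primary cilium and intraflagellar transport genes, which build and serve the photoreceptor outer segment, showed 7 of 47 higher and none lower, with a median of 0.07. Rp2, a retinitis pigmentosa gene that helps carry lipid-modified proteins to the cilium, stood at 3.26 to 3.73 rescaled FPKM in Atf6+/+ and 3.85 to 5.13 in Atf6-/- libraries, without overlap. Kif3b, a motor subunit gene of this transport, was also apart, at 25.1 to 26.8 against 27.4 to 28.4. The count of higher cilium genes was 12 without Atf6+/+ replicate 4, 10 without Atf6-/- replicate 5 and 1 without Atf6+/+ replicate 1. It was 1 with FPKM as deposited, 1 with libraries rescaled to the same sum, 4 after the GC correction and 0 with that correction and the replicate block. Of 54 splicing factor genes 4 were higher, among them Son and Clk1 (log2 fold change 0.22 each), and 1 after the correction, against 9 higher and 3 lower without Atf6+/+ replicate 4 and 11 and 5 without Atf6-/- replicate 5. Their median of 0.03 turned to -0.07 with the lens and pigment epithelium covariates. The median GC content of these 2 lists was 46.5% and 45.9%.

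The other genes of the folate pathway to which Shmt2 belongs stayed short of the thresholds. Of 22 genes for serine synthesis and mitochondrial folate metabolism, Shmt2 was the only one past the unadjusted threshold. The median of the list was -0.04, and its library scores overlapped.

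Glycolysis and hypoxia target genes stood lower. Of 41 genes, 32 had a log2 fold change below 0, 9 were lower and 1 higher, and the median was -0.18. Without Atf6+/+ replicate 1, 5 were lower, and without Atf6-/- replicate 5, 13 were. Pfkl, a phosphofructokinase gene, stood at 200, 167, 181, 168 and 145 rescaled FPKM in Atf6+/+ and 130, 108, 138, 112 and 170 in Atf6-/- replicates 1 to 5, with a log2 fold change of -0.40 ± 0.12 and overlap through Atf6-/- replicate 5. Egln1, an oxygen-sensing prolyl hydroxylase gene, stood at 37.0 to 63.0 in Atf6+/+ and 28.2 to 40.7 in Atf6-/- libraries. Gapdh, the most abundant gene of the list, stood at 6081 to 8265 and 6420 to 7399 rescaled FPKM, a difference of 0.01 whose sign changed with the scaling.

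Cell cycle genes also stood lower, with 12 of 40 lower, none higher and a median of -0.19, or -0.35 with the lens and pigment epithelium covariates. The count was 10 without Atf6+/+ replicate 4, 10 without Atf6-/- replicate 5 and 6 to 14 over all single libraries left out. Ube2c, a ubiquitin-conjugating enzyme gene of mitotic exit, stood at 2.82, 4.86, 3.92, 3.71 and 2.63 rescaled FPKM in Atf6+/+ and 1.89, 2.53, 2.09, 2.37 and 2.69 in Atf6-/- replicates 1 to 5, with a log2 fold change of -0.59 ± 0.16. Cdca8, a gene of the chromosomal passenger complex, differed by -0.50. In each of these genes 4 of 5 Atf6-/- libraries lay below every Atf6+/+ library.

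In 3 response lists 1 Atf6+/+ library scored far above the rest, and the counts moved with several libraries. All 30 gliosis and injury genes had a log2 fold change below 0, with a median of -0.52 and 7 lower at the unadjusted threshold. Atf6+/+ replicate 1 had the highest score, 1.07, and without it the median was -0.21 and 2 were lower. The count was also 2 without Atf6-/- replicate 1 and 1 without Atf6-/- replicate 4, and with the lens and pigment epithelium covariates it was 10 with a median of -0.74. Nes, the intermediate filament gene nestin, stood at 23.1 rescaled FPKM in that library, at 7.67 to 9.47 in the other Atf6+/+ libraries and at 4.27 to 9.12 in Atf6-/- libraries. Immediate early genes had 28 of 30 below 0, a median of -0.34 and 5 lower, among them Jun (-0.43) and Klf4 (-0.47). Without Atf6+/+ replicate 1, which scored 1.06, the median was -0.11 with 2 lower, and with the covariates it was 0.03 with none lower. Interferon response genes had 29 of 33 below 0, a median of -0.29 and 3 lower. Atf6+/+ replicate 3 scored 0.922 there, and without it the median was -0.11 with 2 lower, against 8 lower without Atf6-/- replicate 5 and 5 lower with the covariates (median -0.39). The chemokine gene Cxcl10 stood at 2.56, 0.670, 5.48, 0.854 and 0.294 rescaled FPKM in Atf6+/+ and at most 0.740 in Atf6-/- libraries.

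Complement, sterol and circadian lists had medians of -0.06 to -0.03. C3, the central complement component, stood at 4.88, 2.91, 2.37, 3.99 and 2.62 rescaled FPKM in Atf6+/+ and 1.47, 1.59, 2.18, 1.99 and 2.15 in Atf6-/- replicates 1 to 5, without overlap and with a log2 fold change of -0.77 ± 0.19 (SE, limma adjusted p = 0.357). It was 1 of 2 genes lower among 24 complement genes. Of 28 sterol synthesis genes 4 were lower (14.3%, beside 5.83% of all genes) and none higher, and with any 1 library left out 1 to 6 were lower. Among 22 circadian genes 4 were higher, among them the nuclear receptor genes Rora (0.26, without overlap), Rorb (0.47) and Nr1d2 (0.31), and 3 were lower, among them the output gene Dbp (-0.28), shares of 18.2% and 13.6%. Without Atf6+/+ replicate 4, 8 circadian genes were lower, and without Atf6-/- replicate 5, 6 were, with 4 higher each time.

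The remaining lists held few genes past the threshold with all 10 libraries, and some held more without either doubtful library, as did the whole set of genes tested. Of 30 genes of the NRF2 antioxidant response, 4 were higher, among them the heme transporter gene Slc48a1 (0.15, without overlap) and G6pdx (0.20), and 2 were lower. Of 32 heat shock genes 1 was higher and 3 lower, among them Hspb1 (-0.50) and Bag3 (-0.81), the latter at 16.2 rescaled FPKM in Atf6+/+ replicate 1 and at most 7.18 elsewhere. Of 29 apoptosis genes 3 were lower (Bbc3, -0.30, for 1) and none higher, of 21 histone genes 1 was higher and 3 lower (H2ax, -0.31, for 1), and of 32 synaptic genes 3 were higher and 1 lower. There were 8 higher and 3 lower heat shock genes without Atf6+/+ replicate 4, and 4 higher and 9 lower synaptic genes. Without Atf6-/- replicate 5 the same lists gave 3 and 7 and 3 and 8, and 7 histone genes were lower.

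**Figure D4:**
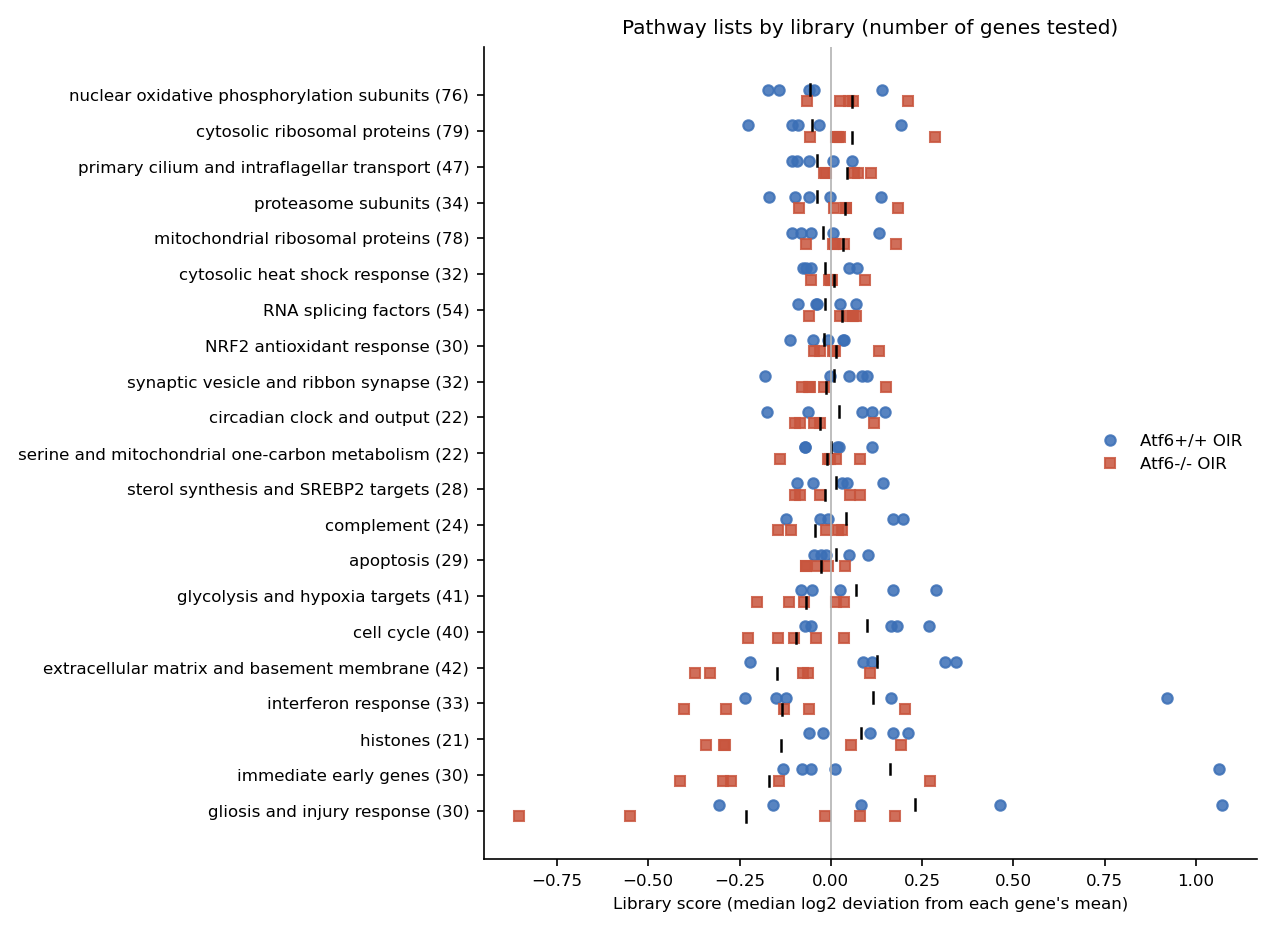
Library scores of 21 pathway lists (x axis, log2 units; the number of genes tested in brackets), with 1 circle per Atf6+/+ and 1 square per Atf6-/- library and the group mean as a black bar. The groups overlap in every list, and single Atf6+/+ libraries lie far to the right in the gliosis (1.07), immediate early gene (1.06) and interferon (0.922) lists.

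The most abundant genes leaned towards higher values in Atf6-/- retinas. Of the 100 genes with the highest mean, all at or above 458.9 FPKM, 74 had a log2 fold change above 0, 14 were higher and 2 lower at the unadjusted threshold, none passed the adjusted one, and the median was 0.08. The differences were small, from -0.51 to 0.29. Without Atf6+/+ replicate 4, 26 were higher and 4 lower, and without Atf6-/- replicate 5, 14 and 4. Of the 100, 25 were on the study's own lists. These genes took 24.2% ± 0.793 (SD, n = 5) of all FPKM in Atf6+/+ and 24.9% ± 0.479 (SD, n = 5) in Atf6-/- libraries.

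Besides Pdc and Crx, Gnb1, which encodes the beta subunit of rod transducin, was the third abundant gene without overlap, at 1109 to 1242 rescaled FPKM in Atf6+/+ and 1300 to 1446 in Atf6-/- libraries. Other rod genes at the unadjusted threshold were those of the phosphodiesterase subunits, Pde6b (log2 fold change 0.21) and Pde6g (0.23). Higher abundant genes outside the photoreceptor lists included Atp6v0c, a subunit gene of the vacuolar proton pump, at 592 to 646 rescaled FPKM in Atf6+/+ and 641 to 801 in Atf6-/- libraries, and Eef1a1, the translation elongation factor gene, at 1334 to 1660 and 1551 to 1817. The 2 lower ones were the glycolytic gene Pgam1, at 548 to 701 and 401 to 641 rescaled FPKM, and the unnamed locus LOC118568718, at 926 to 1312 and 779 to 1087. All 4 of these overlapped.

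The lean changed with the level of expression. Between 100 and 1000 FPKM 71 of 618 genes were higher and 13 lower, while between 0.1 and 1 FPKM 92 of 2644 were higher and 158 lower. With FPKM as deposited, 7 of the 100 most abundant genes were higher and 4 lower, and with quantile normalization 9 were higher and 6 lower.

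**Figure D5:**
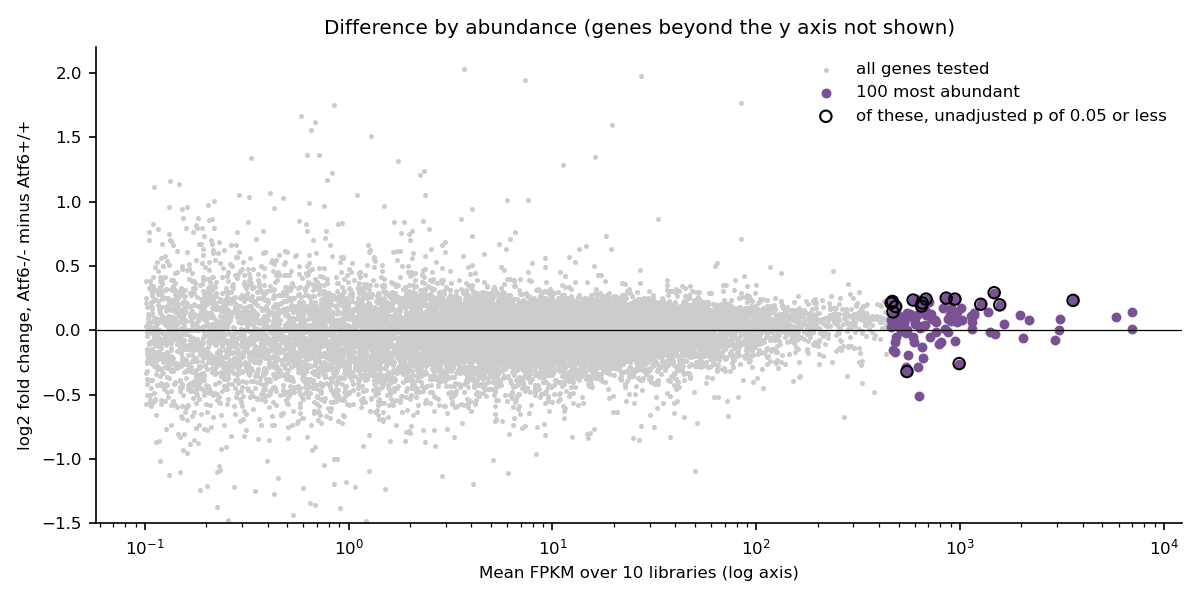
Log2 fold change of each gene (y axis, Atf6-/- minus Atf6+/+) against its mean FPKM over the 10 libraries (x axis, log scale). Grey points are all genes tested, purple points the 100 most abundant and black rings those of the 100 past the unadjusted threshold. Of the 16 ringed genes 14 lie above 0, at up to 0.29.

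Outside the lists above and the study's own lists, the clearest differences lay in genes of unrelated functions. Most of them went with the base composition described below. The higher genes named here ran from 35.0% GC (Gm20594) to 52.6% (Tuba4a). The lower ones ran from 44.3% (Kcnmb4) to 61.7% (P3h3), against a median of 50% over all genes tested. Their values after the GC correction are not given. Among genes of at least 10 FPKM whose groups did not overlap, Gm4724, a predicted gene, had the smallest p after the called genes on the higher side. It stood at 11.3, 14.2, 12.5, 13.8 and 14.2 rescaled FPKM in Atf6+/+ and 18.4, 17.6, 19.9, 20.8 and 16.6 in Atf6-/- replicates 1 to 5, with a log2 fold change of 0.50 ± 0.08 (SE, limma adjusted p = 0.0953). Both P30 groups held more of it than Atf6+/+ OIR libraries, 20.1 to 24.5 FPKM as deposited. Ip6k2, an inositol hexakisphosphate kinase gene, stood at 103 to 130 and 134 to 168 rescaled FPKM (limma adjusted p = 0.153).

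The next higher genes were Gm20594 (log2 fold change 0.46), Rev3l, which encodes the catalytic subunit of the translesion DNA polymerase zeta (0.42), the long-chain acyl-CoA synthetase gene Acsl3 (0.35), the alpha-tubulin gene Tuba4a (0.30) and Cnot6, a deadenylase gene (0.30). On the lower side Zfp365, a zinc finger gene, stood at 37.8, 36.6, 37.5, 35.1 and 38.0 rescaled FPKM in Atf6+/+ and 29.7, 24.8, 25.5, 27.6 and 30.9 in Atf6-/- replicates 1 to 5. Its log2 fold change was -0.42 ± 0.07 (SE, limma adjusted p = 0.0925), and its medians of 60.01 and 58.25 FPKM as deposited in the P30 saline and Ceapin-A7 groups lay above both OIR groups.

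Aldh7a1, a lysine catabolism enzyme gene, stood at 16.1 to 19.4 rescaled FPKM in Atf6+/+ and 13.5 to 15.1 in Atf6-/- libraries, with a log2 fold change of -0.32 ± 0.06 (limma adjusted p = 0.194). The remaining lower genes were Asphd1 (-0.34), Kcnmb4, a subunit gene of the large-conductance potassium channel (-0.30), P3h3, a collagen prolyl hydroxylase gene (-0.28), the DNA helicase gene Recql5 (-0.25), Tmem191c (-0.24), Shfl, an antiviral gene (-0.20), and Pagr1a (-0.19). Among genes of at least 1 FPKM, the organic anion transporter gene Slc22a8 had one of the largest differences without overlap, at 1.13 to 2.04 rescaled FPKM in Atf6+/+ and 2.67 to 3.81 in Atf6-/- libraries (limma adjusted p = 0.237). Derl3, an ER-associated degradation gene, is not of unrelated function: it falls within the removal of faulty proteins described above for ATF6. It differed by -0.71 without overlap (limma adjusted p = 0.162).

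Base composition went with the direction of difference over the whole table. The log2 fold change of the genes correlated with the GC content of their transcripts at a Spearman coefficient of -0.476, across 15460 genes that share the same 10 libraries. Of 907 genes with at most 40% GC, 177 were higher and 7 lower, and of 758 genes with over 60% GC, 5 were higher and 115 lower. After correction of each library for GC content, 42 and 32 of the former and 50 and 52 of the latter were higher and lower. The 5 called genes were among the 8 with an adjusted p under 0.05 after this correction. Gm29733 had no GC value, so its own values were left uncorrected and its call there does not test the correction.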

How the data were processed

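The authors sequenced whole-retina RNA, aligned the reads with HISAT2 2.0.4, quantified genes with RSEM 1.2.18 on GRCm39 (tools and versions from the submitters' processing notes) and deposited FPKM per gene and library. They compared groups with DESeq2 1.4.5, whose result columns were not used. FPKM has already been divided by transcript length and library total, so a few very high genes shift all others. The paper gives a read number for all samples alike, but FPKM carry no read counts, and no count model could be run. Here the deposited FPKM of the 10 P17 libraries were divided by a median-of-ratios factor, put on the scale log2(value + 0.1), filtered at a mean above 0.1 FPKM and fitted with limma 3.58.1 (eBayes with trend, R 4.3.3) with no covariate and Benjamini-Hochberg adjustment over 15704 genes. The script was tested on simulated data. Single genes also had a 2-sided exact permutation test, with 252 arrangements of the libraries, and lists had no test.

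Members and lists were chosen with earlier results of these data known. Genes were named by rule: those with an adjusted p under 0.05, the 10 higher and 10 lower of at least 10 FPKM with the smallest p, no overlap and no place on the study's lists, up to 3 genes and the most abundant gene per list, the abundant genes at the unadjusted threshold, the largest differences of at least 1 FPKM without overlap, and Atf6, Atf6b and the defining markers. Not every gene so chosen is printed. Alternatives changed the pseudocount, filter, scaling, trend, sample weights, samples fitted, replicate block, GC correction and covariates, and left out each library. GC content was available for 98.4% of genes tested, and the values of the others, Gm29733 among them, were left uncorrected. Names, positions and promoters came from RefSeq on GRCm38.p6, since a GRCm39 annotation was not used here. The mitochondrial genome list had no gene in the table and the P30 libraries entered only as levels.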

Additional observations from a re-analysis of the deposited data

Results flagged for a closer look

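Values of 1 library that stood far from the other 4 of its group were counted for the genes named above and for the list scores, by Dixon's ratio at 0.71. Of 290 groups of 5 values 23 held such a value, and chance alone gives about 1 in 20. Atf6-/- replicate 5 held 7 of them, Atf6+/+ replicate 1 held 5 and Atf6+/+ replicate 4 held 3, and no other library held more than 2.

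In Atf6-/- replicate 5, rescaled FPKM was 12.02 for Pdgfrb (5.49 to 6.26 in the other 4), 27.9 for Rbpms (18.9 to 20.8), 4.03 for Col3a1 (1.78 to 2.13), 56.5 for Jam2 (65.3 to 68.2), 21.4 for Ppm1h (14.8 to 16.1) and 228 for Gm20594 (280 to 298). The synaptic list scored 0.152 there (-0.078 to -0.018). In Atf6+/+ replicate 4, Pdgfrb stood at 6.37 (9.54 to 10.6), Rbpms at 18.2 (24.2 to 25.1) and the amacrine gene C1ql2 at 23.5 (36.8 to 41.9). Pdgfrb and Rbpms thus departed in both libraries, in opposite directions.

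In Atf6+/+ replicate 1, Nes stood at 23.1 (7.67 to 9.47), Bag3 at 16.2 (5.53 to 6.18), Aif1 at 1.43 (1.85 to 1.99) and Slc22a8 at 1.13 (1.96 to 2.04), and the immediate early gene list scored 1.064 (-0.13 to 0.011). The other values were Gm29733 at 0.213 in Atf6+/+ replicate 5 (0 in the rest), Plac9a at 12.9 in Atf6+/+ replicate 2 (8.75 to 9.39), Cx3cr1 at 5.31 in Atf6+/+ replicate 3 (4.24 to 4.45), Arhgef25 at 23.8 and Itgam at 1.252 in Atf6-/- replicate 4 (24.9 to 25.0 and 1.56 to 1.66), Tmem191c at 20.4 in Atf6-/- replicate 2 (18.2 to 18.5), Timeless at 1.204 in Atf6-/- replicate 1 (1.8 to 2.06), and a score of 0.285 for cytosolic ribosomal proteins in Atf6-/- replicate 2 (-0.056 to 0.024).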

How the results depend on the processing

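The 5 genes with an adjusted p under 0.05 stayed under it in every alternative but the fit with lens and pigment epithelium levels as covariates, where Tmem254a and Shmt2 had limma adjusted p of 0.071 and 0.0697. The number of such genes was 9 with no filter on low values, 11 with all 20 libraries fitted, 8 with the GC correction and 5 to 9 with single libraries left out, the 9 without Atf6-/- replicate 5. With limma array weights it was 2772, with 2737 higher and 3013 lower genes at an unadjusted p of 0.05 or less, and the weights of Atf6+/+ replicate 4 and Atf6-/- replicate 5 were then 0.344 and 0.346. The number of higher genes at that threshold was 582 with FPKM as deposited, 570 with libraries rescaled to the same sum and 612 to 1858 with single libraries left out, and the number of lower genes 481 to 2154. Among the 100 most abundant genes the 16 at the threshold became 30 with array weights, 9 with the covariates and 7 to 30 with single libraries left out. The causes were not tested.

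The replicate numbers did not pair the libraries: same-numbered deviations correlated at -0.183, -0.258, -0.011, 0.21 and 0.028. With the replicate block 5 genes had an adjusted p under 0.05, 900 were higher and 1067 lower, and 7 of the abundant genes passed the unadjusted threshold. With the GC correction and replicate block together these were 5, 672, 711 and 10.

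Of 39 list medians 16 changed sign in some alternative. Single genes changed sign as follows. With the lens and pigment epithelium covariates the log2 fold change was 0.208 for Atf6b, 0.427 for Lhx1, 0.207 for Rbpms, 0.135 for C1ql2, 0.164 for Pdgfrb, 0.026 for Crygc, 0 for Col1a1, 0.095 for Dbp, -0.159 for Ptgds, -0.078 for Gapdh and -0.001 for Eef1a1. With the GC correction, with or without the block, it was -0.02 for Atf6. With quantile normalization it was -0.011 for Rlbp1 and -0.057 for Gapdh, and Gapdh stood at -0.005 as deposited, at -0.011 rescaled to the same sum and, in 6 of 10 fits without 1 library, between -0.032 and -0.002, against up to 0.078 without Atf6+/+ replicate 4. The paper gives a read number for all samples alike, but FPKM carry no read counts, so low genes have no counting interval.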

Other observations

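Genes of the X chromosome, which were not summarised as a list above though some are members of those lists, leaned higher in Atf6-/- retinas. Of 542 tested, 65 (12%) were higher and 12 (2.21%) lower at the unadjusted limma threshold, with a median log2 fold change of 0.08. Over all genes tested 6.92% were higher and 5.83% lower. The X chromosome was not alone in this: on chromosomes 16 and 14, 11.4% and 10.1% of genes were higher. Their median GC content was 45.7%. After the GC correction 32 of the X-linked genes were higher and 17 lower, beside 864 and 753 of all 15704 genes, and the X median was 0.03. Libraries with Y-linked transcripts occurred in both groups: Atf6+/+ replicates 3 and 4 and Atf6-/- replicates 2 and 3. With Ddx3y, a Y-linked gene, as a covariate, 7 genes had an adjusted p under 0.05 by limma.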
